A study of Mus musculus with 3 samples.

Results

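Mitochondrial ribosomal protein genes were taken as every gene whose symbol begins with Mrpl (large subunit) or Mrps (small subunit) and that has a probe set naming no other gene on the array. This gave 74 of the 18820 genes measured, 46 for the large and 28 for the small subunit, read by 87 probe sets. Where a gene had several probe sets, their mean was used. Mrpl24, Mrpl43, Mrpl53 and Mrps6 lay only on probe sets shared with other genes and were not analysed here.

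The arrays come from RAW264.7 cells, a mouse macrophage line obtained from ATCC, cultured in medium with serum. Separate cultures received 500 µM of oleate, elaidate or palmitate for 6 hours. Oleate and elaidate are the cis and trans isomers of the same monounsaturated fatty acid, and palmitate is saturated. Every fatty acid was dissolved in ethanol and KOH and carried on albumin free of fatty acids, at 2 molecules of fatty acid to 1 of albumin, so all groups share that carrier. Each fatty acid has 1 array, with no array of untreated or carrier-treated cells. Every value below is therefore a difference between single arrays, without replicate error and without a test, and it compares these arrays rather than the fatty acids.

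Mitochondria carry their own ribosome, which makes the few proteins of the respiratory chain that are encoded by mitochondrial DNA. Its RNA is made inside the organelle, but all of its proteins are encoded in the nucleus, made in the cytosol and imported. Some of these proteins have bacterial counterparts, while others were added during the evolution of mitochondria. In bulk RNA, fewer cells making a transcript and less of it in each cell cannot be told apart.

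The line carried the transcripts of its labelled cell type. All 10 macrophage markers examined passed the filter on low values, including Cd68 at a log2 value of 11.77 on every array. None of the 4 lymphocyte markers measured did, nor did Adipoq, while 2 of 5 fibroblast markers (Col1a1, Acta2) and 2 of 4 epithelial or hepatocyte markers (Alb, Krt8) lay above it at log2 values of at most 5.03. Fabp4, a fat cell marker that macrophages also express, measured 5.25 with oleate, 6.04 with elaidate and 5.71 with palmitate. The macrophage markers themselves differed between arrays: with palmitate, 8 of 10 had a value below that with oleate (36.8% of all genes past the filter did) and 0 had one above it (30.9% of all genes), with a median difference of -0.34 and Mertk furthest at -2.10. Any part of this in the differences described next was not tested. The median log2 value over all probe sets was 3.57 with oleate, 3.58 with elaidate and 3.61 with palmitate.

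All 74 mitochondrial ribosomal protein genes passed the filter, a mean log2 value of 4.14 that 9410 genes reached. The lowest mean among them was 5.20. Of the 74, 57 differed by less than 0.32 on the log2 scale in every pair of arrays. This share was not computed over all genes. For palmitate against oleate alone, 11.7% of all genes were lower by at least that much and 9.88% higher. The members are therefore not shown to be steadier than other genes. A log2 difference of 0.32 is the limit used throughout, and a gene past the limit differs by at least that much. A minority stood lower on the palmitate array, among them Mrps21, Mrpl18, Mrpl51, Mrps26 and Mrpl34, and a smaller set stood higher there, namely Mrpl19, Mrps31, Mrpl32 and Mrps18b. Between oleate and elaidate 1 member, Mrps16, was past the limit. Genes of both subunits were found in the lower and the higher set for palmitate, in similar shares. No member differed 2-fold in any comparison, beside 2.87% of all genes for palmitate against oleate, 1.85% for palmitate against elaidate and 0.106% for elaidate against oleate.

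Between palmitate and oleate, 13 of 74 members (17.6%) were lower past the limit with palmitate, beside 11.7% of all 9410 genes past the filter. In the other direction, 4 of 74 (5.41%) were higher past the limit, beside 9.88% of all genes. The median difference was 0 both for the members and for all genes, and 28 members (37.8%, beside 32.3% of all genes) had equal values on both arrays. The mean difference was -0.06 for the members and -0.01 for all genes. The members ranged from -0.94 to 0.67.

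Mrps21, a small-subunit protein with a bacterial counterpart, had log2 values of 9.18 with oleate, 9.05 with elaidate and 8.24 with palmitate. The palmitate array thus stood apart from the others, 1.92-fold below oleate, the widest gap to oleate among the members. Mrpl18, which sits in the central protuberance and whose bacterial counterpart binds a small ribosomal RNA, measured 9.54 with oleate, 9.61 with elaidate and 8.74 with palmitate. Here elaidate was marginally above oleate and palmitate was 1.75-fold below oleate, and both of its probe sets showed this, at -0.88 and -0.73. Mrpl51, a large-subunit protein found only in mitochondrial ribosomes, measured 8.20, 8.05 and 7.56 in the same order. Its probe sets differed between palmitate and oleate by -0.65 and -0.62, and elaidate lay between the other arrays. Mrps26, a mitochondria-specific protein of the small-subunit body, measured 8.02, 7.79 and 7.41, again with elaidate between, and was 1.53-fold lower with palmitate than with oleate.

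Further large-subunit members followed with smaller gaps. Mrpl34, which has a bacterial counterpart, measured 9.17 with oleate, 9.16 with elaidate and 8.57 with palmitate, so that only the palmitate array differed by more than a few hundredths. Mrpl41, a mitochondria-specific protein also known as a binding partner of the apoptosis regulator Bcl2, measured 7.51, 7.59 and 6.94. Mrpl49, another mitochondria-specific member, measured 7.75, 7.67 and 7.26. In all of these the palmitate array held the lowest value, 1.40-fold to 1.51-fold below oleate. Mrps24 of the small-subunit head, whose bacterial counterpart lies where messenger RNA enters the ribosome, measured 7.70, 7.61 and 7.21, with the same ordering as Mrpl49.

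The remaining members on the lower side were close to the limit. Mrpl42 differed by -0.36 between palmitate and oleate (5.34 with oleate, 5.30 with elaidate, 4.97 with palmitate). Its probe sets disagreed in size: the one with the higher signal measured 7.29 with oleate and 6.65 with palmitate, and the other, at 3.38 with oleate and so below the filter value, differed by -0.08. Mrps34, needed for a stable small subunit and mutated in some human mitochondrial disease, also differed by -0.36, from 8.58 with oleate through 8.47 with elaidate to 8.22 with palmitate. Mrpl12, the stalk protein that also binds the mitochondrial RNA polymerase, measured 8.88, 8.85 and 8.54, a difference of -0.34. Mrpl40 of the central protuberance measured 8.32, 8.24 and 7.98, a difference of -0.33. The next inside the limit were Mrpl17, at 7.08, 6.90 and 6.81, and the stalk protein Mrpl11, at 7.74, 7.74 and 7.47, each differing by -0.27.

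Mrps16 was the exception among the lower members. This small-subunit protein with a bacterial counterpart, mutated in a human respiratory chain deficiency, measured 6.91 with oleate and 6.57 with both elaidate and palmitate. Its difference from oleate was -0.34 for either fatty acid, and palmitate and elaidate did not differ.

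On the other side, Mrpl19, a large-subunit protein with a bacterial counterpart, measured 8.07 with oleate, 8.25 with elaidate and 8.73 with palmitate, 1.59-fold higher with palmitate than with oleate. Mrps31, a mitochondria-specific protein of the small-subunit head, measured 7.44, 7.53 and 7.91. Mrpl32, whose precursor is cut to its mature form by the m-AAA protease of the inner membrane, measured 7.44, 7.58 and 7.90. For all of these the values were ordered oleate, elaidate, palmitate from low to high. Mrps18b, from a group of mammalian proteins that share a single bacterial relative, measured 8.97 with oleate, 8.97 with elaidate and 9.37 with palmitate, so only palmitate stood apart. The next members inside the limit were Mrps22 (8.23, 8.43 and 8.49, a difference of 0.26 between palmitate and oleate), Mrpl39 (8.17, 8.37 and 8.42) and Mrpl47 (5.98, 6.10 and 6.22). Mrpl35 (8.29, 8.43 and 8.48) lay further inside, at 0.19, and the palmitate array held the highest value in each.

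**Figure D1:**
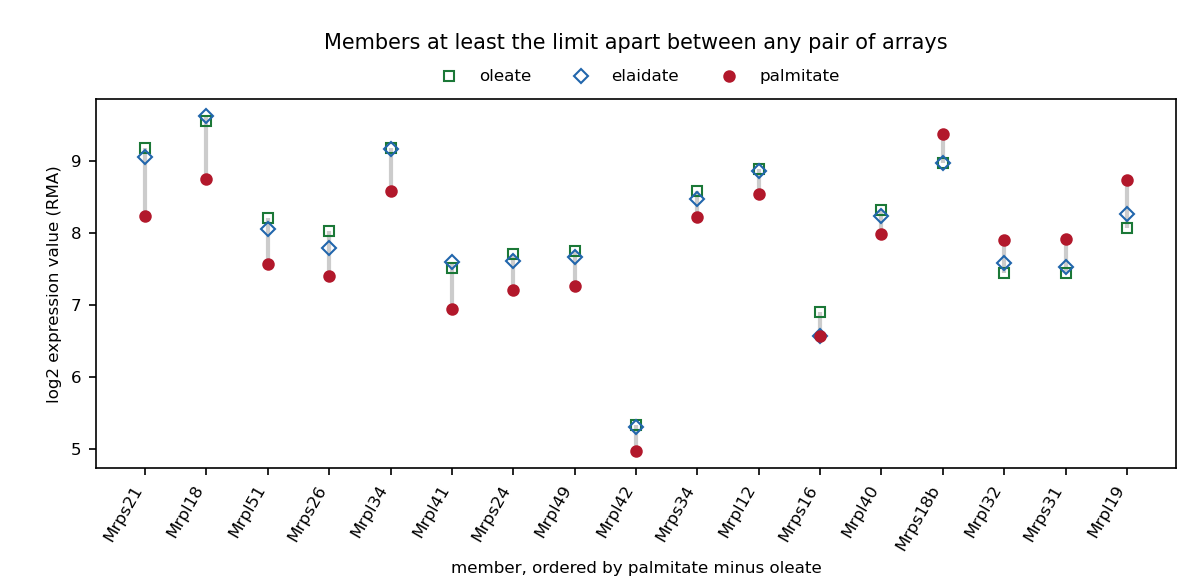
Log2 expression value (vertical axis, RMA) on the single oleate, elaidate and palmitate arrays of the 17 members past the limit between any pair of arrays, ordered by palmitate minus oleate; grey lines join the lowest and highest value of a gene. In 12 of the 13 members on the left the palmitate array alone holds the lowest value, Mrps16 having equal values with elaidate and palmitate, and in the 4 on the right it holds the highest.

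The comparison of palmitate with elaidate shares the palmitate array with the comparison above, so its values are given side by side and are not separate evidence. Between these arrays 9 of 74 members (12.2%) were lower past the limit with palmitate, beside 11.4% of all genes, and 4 (5.41%) were higher past it, beside 8.02% of all genes. Equal values were held by 23 members (31.1%), beside 34.2% of all genes. Mrpl18 was furthest at -0.88, followed by Mrps21 at -0.82, Mrpl41 at -0.65, Mrpl34 at -0.58 and Mrpl51 at -0.48. Mrpl49, Mrps24, Mrps26 and Mrpl42 completed the lower set, at -0.41, -0.40, -0.38 and -0.33. Mrpl12, at -0.31, Mrpl11, at -0.27, and Mrps34, at -0.26, lay inside the limit. Mrpl12 passed it when each array was centred on its median, and also when its probe set with the highest mean was used. The higher set was the same 4 genes as against oleate: Mrpl19 at 0.48, Mrps18b at 0.41, Mrps31 at 0.38 and Mrpl32 at 0.32, the last losing the limit when each array was centred on its median. The mean difference was -0.06 for the members and -0.02 for all genes, and both medians were 0.

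Between the isomers, elaidate and oleate, the members lay closer together. Mrps16 alone was lower past the limit with elaidate (1 of 74, 1.35%, beside 0.893% of all genes), and 0 members were higher past it, beside 2.67% of all genes. Equal values were held by 30 members (40.5%), beside 44.1% of all genes. The next lowest differences were those of Mrps26 at -0.24, Mrpl17 at -0.18, Mrpl51 at -0.15, Mrps21 at -0.12 and Mrps18a at -0.11. Mrps34, Mrps24, Mrpl40 and Mrpl49 lay between -0.10 and -0.08, Mrps2 at -0.06 and Mrpl38 at -0.04. The highest were Mrps22 and Mrpl39, each at 0.19, Mrpl19 at 0.19, Mrpl32 and Mrpl35, each at 0.14, and Mrps33 at 0.13. The members had a mean difference of 0.00 and all genes one of 0.02.

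The members' values were often identical between arrays. In 21 of 74 members (28.4%) all 3 arrays held the same value to within 1e-06, beside 27.5% of all genes past the filter. These were 14 large-subunit genes, among them Mrpl45, which tethers the ribosome to the inner membrane, and Mrpl44, and 7 small-subunit genes, among them Mrps12 of the decoding region and Mrps36, a protein since assigned to the oxoglutarate dehydrogenase complex. An equal value is an equal summary over the probes of a set and does not show that the transcript levels were the same. In 9 members (12.2%, beside 16.6% of all genes) oleate and elaidate were equal and palmitate differed. In 7 (9.46%, beside 4.77% of all genes) oleate and palmitate were equal and elaidate differed. In Mrpl13 and Mrps16 (2.70%, beside 6.62% of all genes) elaidate and palmitate were equal and oleate differed. Where a member's 3 values all differed, in 35 cases, the middle one belonged to elaidate in 26 (74.3%), to oleate in 7 (20.0%) and to palmitate in 2 (5.71%). Over all 4186 genes with 3 different values the shares were 60.2%, 32.3% and 7.53%.

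**Figure D2:**
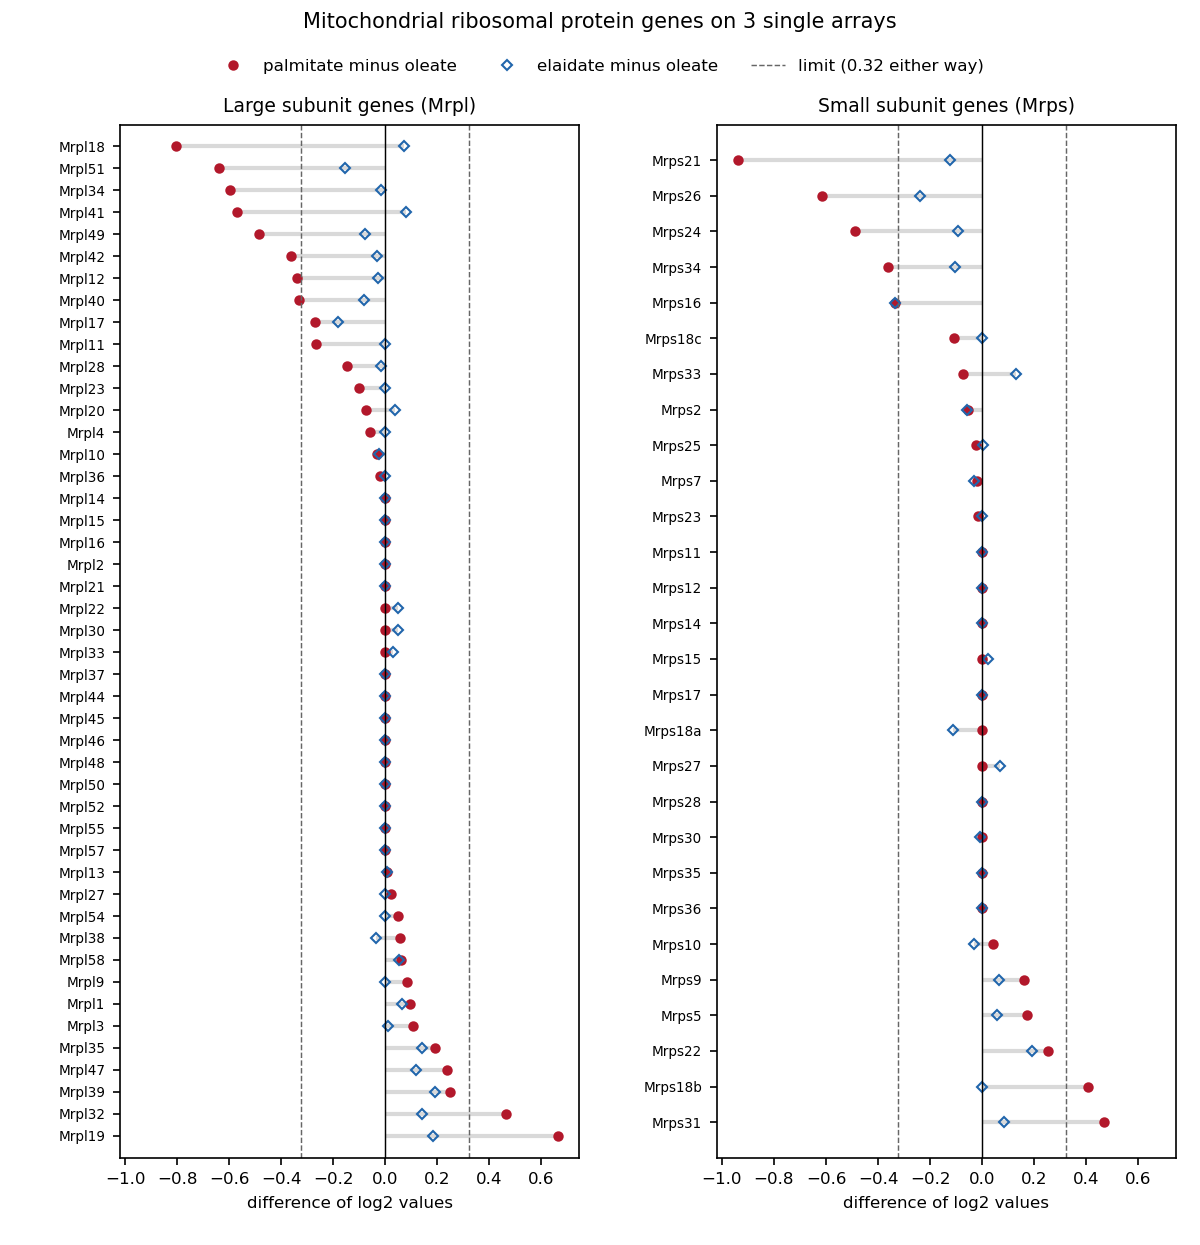
Difference of log2 values (horizontal axis) of each of the 46 Mrpl genes (left) and 28 Mrps genes (right), palmitate minus oleate as red circles and elaidate minus oleate as open blue diamonds; dashed lines mark the limit. Differences of palmitate from oleate run from -0.94 for Mrps21 to 0.67 for Mrpl19, with 8 Mrpl and 5 Mrps genes beyond the lower line, while the diamonds stay inside the lines except for Mrps16.

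Large and small subunit genes were then set side by side. Between palmitate and oleate, 8 of 46 Mrpl genes (17.4%) and 5 of 28 Mrps genes (17.9%) were lower past the limit with palmitate. In each subunit 2 were higher past it (4.35% and 7.14%). Over all genes, 11.7% were lower and 9.88% higher. The mean difference was -0.06 for the large subunit (SD over genes 0.27) and -0.05 for the small subunit (SD over genes 0.29), and both medians were 0. Between palmitate and elaidate, 6 Mrpl (13.0%) and 3 Mrps genes (10.7%) were lower past the limit, beside 11.4% of all genes. Again 2 of each were higher (4.35% and 7.14%, beside 8.02% of all genes), and the means were -0.07 and -0.04. Between elaidate and oleate the means were 0.01 and -0.02, and Mrps16 was the single gene past the limit. It is 3.57% of the Mrps genes, beside 0.893% of all genes lower past the limit. The large-minus-small gap in means was -0.01, -0.04 and 0.03 in these 3 comparisons. Assigning genes by the known structure, with Mrps18a and Mrps30 in the large subunit and Mrps36 left out, gave 48 large and 25 small subunit genes and the same counts past the limit for palmitate against oleate.

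Grouping the members by origin or position gave small sets with few genes past the limit. Over all genes, 11.7% were lower and 9.88% higher past it between palmitate and oleate, and the counts below stand beside these shares. In sets this small they are not read as differences between origins or positions. Of 44 members with a bacterial counterpart, 6 were lower (13.6%) and 2 higher (4.55%) past the limit between palmitate and oleate (mean -0.05). Of 29 mitochondria-specific members, 7 were lower (24.1%) and 2 higher (6.90%), with a mean of -0.07. With subunits taken by symbol, 5 of 17 mitochondria-specific Mrpl genes were lower (Mrpl51, Mrpl41, Mrpl49, Mrpl42 and Mrpl40) and 0 higher, with a mean of -0.12. Of 29 Mrpl genes with a bacterial counterpart, 3 were lower and 2 higher (mean -0.03). Among Mrps genes the means stood the other way round. Of 12 mitochondria-specific Mrps genes, 2 were lower and 2 higher (mean 0.00), against 3 lower and 0 higher of 15 with a bacterial counterpart (mean -0.10). The 12 include Mrps18a and Mrps30, which the known structure places in the large subunit and which were equal on both arrays. They also include Mrps18b, at 0.41, which shares a bacterial relative with other proteins. The gap between these means therefore depends in part on how such genes are assigned. In the central protuberance 2 of 9 genes (Mrpl18, Mrpl40) were lower past the limit, in the stalks 1 of 5 (Mrpl12), and around the exit of the peptide tunnel 0 of 7, where differences ran from -0.27 for Mrpl17 to 0.25 for Mrpl39. In the small subunit, 4 of 16 body genes were lower and 1 (Mrps18b) was higher, and of 8 head genes 1 (Mrps24) was lower and 1 (Mrps31) was higher. Mrpl58, an integral large-subunit protein that also frees peptides from stalled ribosomes, measured 8.35 with oleate, 8.40 with elaidate and 8.41 with palmitate. Chchd1, Dap3 and Ptcd3, mitoribosomal proteins under other symbols, differed by -0.16, -0.07 and 0.01 between palmitate and oleate.

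For 12 members several probe sets could be set against each other. None had probe sets of opposite sign between palmitate and oleate or between elaidate and oleate. Between palmitate and elaidate the probe sets of Mrpl47, a tunnel-exit protein, had opposite signs. One of its probe sets was equal on the oleate and palmitate arrays and the other differed by 0.48. Mrps5, a small-subunit body protein, had probe sets differing by 0.33 and 0.01 between palmitate and oleate. Taking the probe set with the highest mean in place of the mean of all kept the 13 members lower past the limit with palmitate than with oleate, and raised the higher set from 4 to 6 by adding Mrpl47 and Mrps5.

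**Figure D3:**
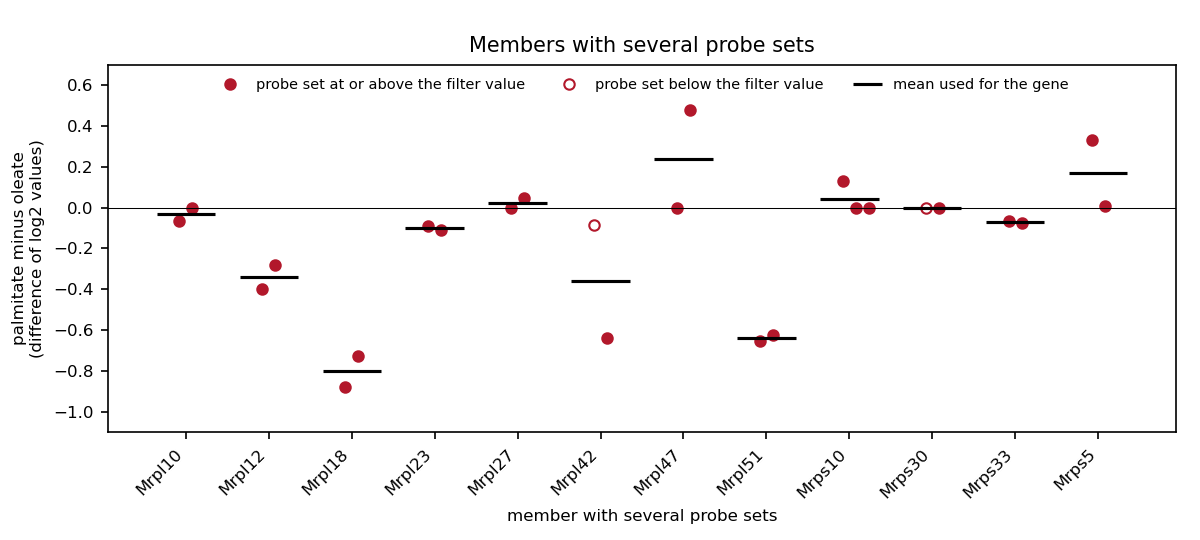
Palmitate minus oleate (vertical axis, difference of log2 values) of each probe set of the 12 members with several; open circles are probe sets below the filter value of 4.14 and black bars the mean used for the gene. Probe sets of Mrpl18 and Mrpl51 lie close together below 0, while those of Mrpl42, Mrpl47 and Mrps5 lie apart.

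Cytosolic ribosomal proteins are the counterparts that translate nuclear messages. Between palmitate and oleate their SD over genes was 0.05, against 0.27 for the members and 0.38 for all genes past the filter. Of 68 past the filter, 0 were past the limit between palmitate and oleate, beside 11.7% of all genes lower and 9.88% higher. Their differences between these arrays ran from -0.19 for Rpl36a to 0.13 for Rpl4, with a median of 0. In the other comparisons 1 of 68 (1.47%) was past the limit, Rpl14. It was lower with elaidate than with oleate at -0.37 (beside 0.893% of all genes lower). Between palmitate and elaidate it was higher at 0.37 (beside 8.02% of all genes higher). Most of them had a mean log2 value above that of any member (highest 9.65, Mrps15), so these spreads were not compared at like signal. Subunits of the oxidative phosphorylation complexes, some of whose partners are the products of the mitochondrial ribosome, were lower than with oleate by any amount on the palmitate array in 66 of 75 genes (beside 36.8% of all genes). Their median difference was -0.15, beside 0 for the mitochondrial ribosomal proteins and for all genes. Equal values, which hold a median at 0, were 6.67% of these subunits, beside 37.8% of members and 32.3% of all genes. The means lay closer, at -0.14 (with Cox6a2 at 2.58 included), -0.06 and -0.01. These lists were not compared at like signal either. Past the limit, 8 of the 75 were lower (10.7%, beside 11.7% of all genes), among them Uqcrh at -0.61 and Atp5g3 and Atp5k each at -0.59, and Cox6a2, a muscle-type subunit, was higher, at 4.30 with oleate, 4.97 with elaidate and 6.88 with palmitate. Between elaidate and oleate the median of both lists was 0.

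Few of the genes that act with the mitochondrial ribosome were past the limit between palmitate and oleate. The list of 16 translation factors includes Mrpl58, itself a member. Of these 16, Mtrf1, a release factor, was higher past the limit with palmitate than with oleate, at 0.42. The elongation factor Tufm was lower, at -0.34. Mtfmt, which formylates the initiator transfer RNA, was the single one past the limit between elaidate and oleate, at 0.34. Of 26 assembly factors, Ngrn, which binds mitochondrial ribosomal RNA, was higher with palmitate at 0.54, as was the GTPase Gtpbp10 at 0.37. Trmt2b, a methyltransferase of mitochondrial RNA, was lower at -0.51 and the pseudouridine synthase family member Rpusd3 at -0.36. Rpusd3 measured 6.12 with oleate and 5.76 with both elaidate and palmitate, so the oleate array stood apart. It was the single assembly factor past the limit between elaidate and oleate (3.85%, beside 0.893% of all genes lower). Between palmitate and oleate the counts are 6.25% of translation factors and 7.69% of assembly factors in each direction. Over all genes, 9.88% were higher and 11.7% lower. On these arrays 6 of the translation factors and 12 of the assembly factors were equal.

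Genes for mitochondrial transcription and RNA handling included 3 of 15 that were higher past the limit with palmitate than with oleate (20.0%, beside 9.88% of all genes) and 0 that were lower (11.7% of all genes). Trmt10c, a subunit of the enzyme that cuts transfer RNAs out of mitochondrial transcripts, measured 6.78 with oleate, 7.05 with elaidate and 7.62 with palmitate. Tfam, which packages mitochondrial DNA and starts its transcription, measured 6.54, 6.55 and 7.04. Mtpap, the mitochondrial poly(A) polymerase, was higher by 0.40, while Polrmt, the RNA polymerase itself, differed by -0.04.

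Of 11 matrix proteases and chaperones, 4 were past the limit with higher values for palmitate than for oleate (36.4%, beside 9.88% of all genes) and 0 with lower ones (11.7% of all genes). Lonp1, the matrix protease that degrades damaged and unassembled proteins, measured 8.28 with oleate, 8.25 with elaidate and 9.11 with palmitate. Hspa9 and Hspd1, the main matrix chaperones, differed by 0.78 and 0.33. Afg3l2, a subunit of the protease that matures Mrpl32, measured 7.96, 8.07 and 8.70, so both it and its substrate's transcript held their highest value on the palmitate array. Its partner subunit Spg7 differed by -0.03, and Afg3l1, of the same list, measured 8.36 on every array. Any link between the protease and its substrate in these values was not tested. The median of this list was 0.05.

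**Figure D4:**
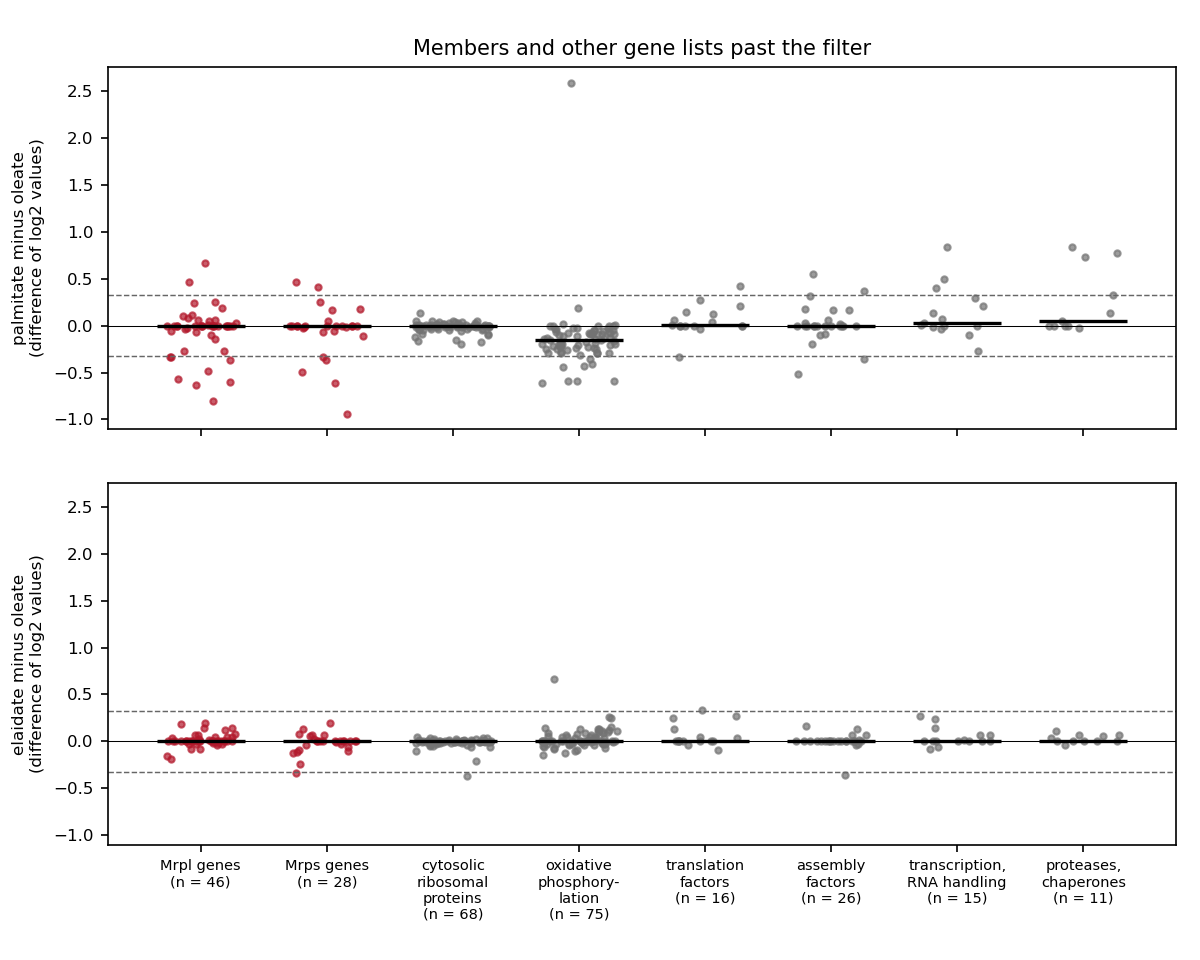
Difference of log2 values (vertical axes) of each gene past the filter in 8 lists, palmitate minus oleate above and elaidate minus oleate below; red points are the members, grey points other lists, black bars medians and dashed lines the limit. The members spread from -0.94 to 0.67 around a median of 0 in the upper panel, and cytosolic ribosomal proteins stay between -0.19 and 0.13. The median of oxidative phosphorylation subunits lies at -0.15 in that panel. In the lower panel the cytosolic Rpl14 lies past the limit at -0.37. Mrpl58 is drawn both as a member and among translation factors, and Lrpprc among both translation factors and RNA handling.

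Regulators of nuclear genes for mitochondria include factors whose motifs were searched in the promoters described next. Nrf1 differed by 0.02 between palmitate and oleate and Yy1 by 0. Gabpa and Gabpb1, subunits of an ETS-family factor, differed by 0.27 and 0.32, the latter just inside the limit. Gabpb2, of the same list, differed by 0.23. The E-box factors Myc and Max differed by -0.28 and 0.08. Past the limit were Atf4, a stress-response factor, at 8.34 with oleate, 9.07 with elaidate and 9.95 with palmitate, and Nfe2l1, a factor for proteasome genes, at 1.07. Ppargc1b, a coactivator of mitochondrial genes, was lower at -0.33. Of the 16 regulators past the filter, 2 were thus higher past the limit (12.5%, beside 9.88% of all genes). The 1 that was lower is 6.25%, beside 11.7% of all genes.

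Promoter sequences were searched for the motifs of these factors in windows from 250 bases before to 50 after the transcription start (RefSeq, GRCm38.p6), on both strands. Windows were held for 65 members, 71 in all; 9 members, Mrpl19 and Mrps34 among them, had none. The ETS motif CCGGAAG occurred in 24 of 71 windows (33.8%), beside 8.86% of all 32851 windows and 19.3% of the windows of genes past the filter. The YY1 motif AAGATGGCG occurred in 8 (11.3%), beside 1.40% and 3.37%, and the NRF1 motif GCGCATGCG in 7 (9.86%), beside 1.75% and 4.10%. At least 1 of these 3 motifs was present in 34 windows (47.9%), beside 11.4% and 25.0%. The E-box CACGTG was found in 7 windows (9.86%, beside 7.15% and 10.6%). Several of these are windows of Mrpl2, with matches at -131, -139 and -147 from different starts, so windows are not separate genes. The ATF4 element TGATGNAA was found in 0 windows, beside 3.97% and 2.25%. Matches can overlap, since the ETS motif ends in the AAG that opens the YY1 motif and the YY1 motif in the GCG that opens the NRF1 motif, and each motif was counted on its own. A match is a run of letters and not a shown binding site.

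The motifs were also counted by subunit and by pattern. The ETS motif was present in 13 of 45 large-subunit windows (28.9%) and 11 of 26 small-subunit windows (42.3%), and the NRF1 motif in 6 and 1. Of 13 windows from 12 members in the lower set for palmitate against oleate, 6 held the ETS motif, 2 the YY1 motif and 0 the NRF1 motif. Of the 3 windows of members higher past the limit, 2 held the NRF1 motif, 1 the ETS motif and 0 the YY1 motif. Of 30 windows from 25 members equal on both arrays, 9 held the ETS motif, 4 the YY1 motif and 1 the NRF1 motif. Among windows of all genes past the filter, 19.3% held the ETS motif, 3.37% the YY1 motif and 4.10% the NRF1 motif. In sets this small, with some members holding several windows, the counts are not read as differences between subunits or patterns.

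The 250 bases before the start are printed for the 4 members furthest below oleate on the palmitate array and for the 3 higher members with a window, because they show where these motifs lie in genes with opposite differences. Capitals mark a match to the ETS motif (Mrpl18, Mrpl51, Mrps26) or to the NRF1 motif (Mrpl32, Mrps18b), in either orientation. The stretches of Mrps21 and Mrps31 hold no match. Beyond the printed stretches, an ETS match lies 19 to 25 bases after the start of Mrps21 and another 44 to 50 bases after that of Mrps18b, so the ETS motif is not confined to the lower members. In Mrpl32 the first run of capitals is a pair of overlapping matches on opposite strands. The stretches lie at chr3:95871515-95871764 (minus strand) for Mrps21, chr17:12916092-12916341 (minus) for Mrpl18, chr6:125191950-125192199 (plus) for Mrpl51, chr2:130563507-130563756 (plus) for Mrps26, chr8:22411090-22411339 (plus) for Mrps31, chr13:14613038-14613287 (minus) for Mrpl32 and chr17:35916441-35916690 (minus) for Mrps18b, each written 5′ to 3′ on the gene's strand.
Mrps21: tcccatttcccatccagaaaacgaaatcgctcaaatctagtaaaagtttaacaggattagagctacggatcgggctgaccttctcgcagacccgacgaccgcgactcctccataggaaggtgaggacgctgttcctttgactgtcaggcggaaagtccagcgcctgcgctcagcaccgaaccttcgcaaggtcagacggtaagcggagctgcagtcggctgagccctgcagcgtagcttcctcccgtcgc
Mrpl18: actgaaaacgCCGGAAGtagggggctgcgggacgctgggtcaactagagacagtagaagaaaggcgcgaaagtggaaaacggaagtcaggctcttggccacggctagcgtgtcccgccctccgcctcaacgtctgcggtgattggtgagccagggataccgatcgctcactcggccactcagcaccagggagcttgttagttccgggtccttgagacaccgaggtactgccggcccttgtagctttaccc
Mrpl51: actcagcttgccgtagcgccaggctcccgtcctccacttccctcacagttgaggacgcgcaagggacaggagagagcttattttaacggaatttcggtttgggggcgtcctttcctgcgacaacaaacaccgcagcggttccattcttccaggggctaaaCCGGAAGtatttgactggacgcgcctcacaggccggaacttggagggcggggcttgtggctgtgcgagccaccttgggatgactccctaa
Mrps26: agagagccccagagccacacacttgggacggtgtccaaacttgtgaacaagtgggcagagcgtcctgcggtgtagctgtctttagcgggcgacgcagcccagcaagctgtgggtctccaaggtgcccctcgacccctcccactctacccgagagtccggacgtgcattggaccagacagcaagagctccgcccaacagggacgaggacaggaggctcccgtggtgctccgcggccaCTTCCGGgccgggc
Mrps31: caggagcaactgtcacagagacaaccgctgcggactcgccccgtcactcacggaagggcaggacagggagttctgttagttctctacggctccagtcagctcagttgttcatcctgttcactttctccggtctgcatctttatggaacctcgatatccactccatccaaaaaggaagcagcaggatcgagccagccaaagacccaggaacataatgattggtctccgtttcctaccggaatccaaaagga
Mrpl32: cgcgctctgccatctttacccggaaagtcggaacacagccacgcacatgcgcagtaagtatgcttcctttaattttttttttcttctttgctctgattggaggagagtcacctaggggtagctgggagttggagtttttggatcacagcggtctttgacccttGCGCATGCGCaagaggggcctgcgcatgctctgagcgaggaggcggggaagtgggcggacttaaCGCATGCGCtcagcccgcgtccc
Mrps18b: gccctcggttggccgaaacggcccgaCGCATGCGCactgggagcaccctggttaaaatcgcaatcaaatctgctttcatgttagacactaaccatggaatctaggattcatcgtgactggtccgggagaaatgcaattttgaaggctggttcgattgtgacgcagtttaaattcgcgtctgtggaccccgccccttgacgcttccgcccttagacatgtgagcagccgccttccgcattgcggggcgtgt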

How the data were processed

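Total RNA from 3 cultures was labelled with a whole-transcript assay and hybridised to 1 Affymetrix array per fatty acid, per the labels' protocols. The authors deposited a log2 value for each probe set, computed with RMA per the submitters' processing notes; RMA comprises background correction, quantile normalisation and a median-polish summary of each set's probes. Its version and the genome build are not given in the sources used here. No further normalisation was applied in the results reported.

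Of 35556 probe sets, 21218 had 1 gene symbol in the platform annotation, 1881 had several and 12457 had none there. Probe sets of a gene were averaged, giving 18820 genes. A gene passed the filter when its average log2 value was at or above the median gene's. Values within 1e-06 of each other were called equal. All 74 members matched RefSeq by gene identifier. Arrays have no read depth; their number limits the precision.

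Differences of log2 values were described by counts at a limit of 1.25-fold (0.32 in log2) and by medians, with no test. Named members are the 12 lowest and 6 highest in each comparison, those past the limit in any, and those whose probe sets differ in sign; a few others, given for their role or for an equal value, were chosen after their values were seen. From other lists, members past the limit or otherwise those furthest from 0 were named, with some exceptions chosen for their role, and not all are named. The members and lists were chosen with earlier results of these data known. Transcripts encoded by mitochondrial DNA were not analysed here.

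Alternatives changed the filter, the scaling (centring, or cyclic loess with limma 3.58.1 in R 4.3.3), the choice of probe set, the fold limit, the summary and the subunit assignment. Calculations ran in Python 3.11.15 with pandas 2.3.3, numpy 2.4.6 and scipy 1.17.1, and plots in matplotlib 3.10.9. The counting steps were tested on simulated data.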

Additional observations from a re-analysis of the deposited data

How the results depend on the processing

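No paired analysis was possible because each fatty acid has 1 array, and no replicate could be left out. Each value recomputed under an alternative had an allowed range, which for a count was 1.5 times. For a median it was the 95% order-statistic interval over genes, which describes the genes and not the error of the arrays. For the large-minus-small gap it combined the intervals of both subunits. The members' median had an interval of 0 to 0 for palmitate and for elaidate against oleate, so any value other than 0 counted as moved there. The counts moved and unmoved therefore say little about stability. Of 81 values, 15 moved by more than the range allowed. The other 66 stayed in that range but were not all identical: with genes of a single probe set, members lower past the limit of 0.32 numbered 9 instead of 13 for palmitate against oleate and 6 instead of 9 for palmitate against elaidate, from 62 members. With the filter at the 75th percentile they numbered 11 and 8, from 54 members. The large-minus-small gap of medians, 0 for palmitate against elaidate, was -0.040 without genes equal on all arrays. The members' median difference between palmitate and oleate, 0 as reported, became -0.040 with each array centred on its median, 4.4e-05 with cyclic loess, -0.016 without genes equal on all arrays, and -0.059 as a mean. Between palmitate and elaidate these were -0.028, 9.1e-05, -0.022 and -0.060. Between elaidate and oleate they were -0.012 with centring, -7e-05 with cyclic loess and 0.0011 as a mean. Counts of members higher or lower by any amount therefore depend on the scaling: palmitate against oleate, centring gave 17 higher and 57 lower, and cyclic loess 42 higher and 32 lower. All genes shifted alike, to 2416 higher and 6994 lower with centring (median -0.040) and 5141 higher and 4216 lower with loess. The count of members lower past the limit stayed at 13 under either. A limit of 1.5-fold left 5 members lower between palmitate and oleate, 3 between palmitate and elaidate and 0 between elaidate and oleate. The last count was also 0 with the filter at the 75th percentile, which removed Mrps16. The number of arrays limits all of these values.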
